A study of Mus musculus with 8 samples.

Results

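The early activation genes described here are 10 genes that signals from the T cell receptor and other stimuli induce quickly: the orphan nuclear receptors Nr4a1, Nr4a2 and Nr4a3, the zinc finger factors Egr1 and Egr3, the AP-1 subunits Jun, Junb, Fos and Fosl2, and the surface receptor gene Cd69. They were taken by symbol from a table of 41730 entries, in which all 10 were found. All 10 passed the filter on low counts, among 12162 genes tested. The RNA came from CD8+ T cells of OT-I mice, all with one transgenic receptor for the ovalbumin peptide SIINFEKL, sorted after culture with dendritic cells that had been grown from bone marrow and given that peptide. Cultures held DMSO, the solvent (control, replicates 1 to 4, 4 libraries), or RGX-104 at 2 µM (replicates 5 to 8, 4 libraries). RGX-104 is a drug that activates LXR, nuclear receptors that sense oxidised cholesterol. Both groups therefore carry the same transgenic receptor and met the same peptide, and there was no group without peptide. The agonist was present for the T cells and the dendritic cells alike, and the length of the culture and the age of the mice are not stated in the labels.

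Immediate early genes are switched on within minutes by factors already present in the cell, and their messengers are short-lived. In T cells, calcium and NFAT drive NR4A and EGR genes, and the ERK and JNK kinase pathways drive FOS and JUN genes, whose products pair as AP-1. NR4A and EGR3 proteins are also known as brakes on T cell responses. CD69, the earliest surface marker of activation, binds the sphingosine 1-phosphate receptor S1PR1 and keeps activated cells in tissue.

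Total counts were 13144704 to 15966972 per library, and control and RGX-104 libraries stood on opposite sides of the first principal component (22.4% of the variance). In the RGX-104 group the proliferation gene Mki67 differed between libraries, at 243, 193, 155 and 136 CPM (counts scaled to a TMM-adjusted library size) in replicates 5 to 8, against 223 to 246 in control. The CD8 T cell markers were abundant in all 8 libraries, with 8 of 9 in the table and a summed level of 1636 to 1665 CPM in control and 1961 to 2038 in RGX-104. Of these 8, 4 were called higher (Cd8a, Cd8b1, Thy1 and Lat), against 0.888% of all genes tested. Cd3d, Cd3e, Cd3g and Lck were not called (log2 fold change 0.08, 0.15, 0.40 and 0.03). The 14 dendritic cell markers summed to 152 to 173 CPM in control and 134 to 157 in RGX-104, mostly from Cst3 and Batf3. H2-Aa, H2-Ab1 and H2-Eb1 were listed at 0 throughout. Whether these H2 symbols stand in the table again with a number appended was not checked. Their 0 is therefore not read as absence. Macrophage and monocyte markers summed to 50.5 to 57.2 and 56.7 to 62.6 CPM. Markers of CD4 and regulatory T cells summed to 12.4 to 15.1 and 8.84 to 11.0 CPM. Cd4 stayed at or below 0.134 CPM in each library. Of the NK cell markers, which summed to 97.3 to 128 CPM in control and 180 to 185 in RGX-104, nearly all was Eomes, a factor that CD8 T cells also express, which was called higher (log2 fold change 0.62, edgeR adjusted p = 1.13e-05). Ncr1, Klrb1c and Klra8 stayed at or below 0.152 CPM. The part of these cells in the results was not tested. In bulk RNA, fewer cells that express a gene and less of its RNA per cell cannot be told apart. No label says that the libraries of a group are separate cultures or mice, and p-values therefore measure the spread between these libraries, which may be technical.

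The early activation genes did not move as a block. Nr4a3 rose, Jun and Cd69 fell, and the other 7 did not pass the test over all genes (edgeR's quasi-likelihood test, two-sided, Benjamini-Hochberg adjusted over 12162 genes, threshold 0.05). Over all genes tested 0.888% were called higher and 1.78% lower, 2.66% in all. The share among the 10 was 30%. The median log2 fold change (RGX-104 against control) of the 10 was -0.24, against 0.00 over all genes tested. The sign was negative for 7 and positive for 3. In the same 3 genes, 1 higher and 2 lower, the CPM ranges of the 2 groups did not overlap, as was so for 8.20% of all genes tested (3.88% higher and 4.32% lower). An unadjusted p under 0.05 was found for 6 of 10, against 13.8% of all genes tested. The 10 genes were chosen with earlier results of these data known, and these shares take no account of count level. The shares are therefore no test of the set.

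**Figure D1:**
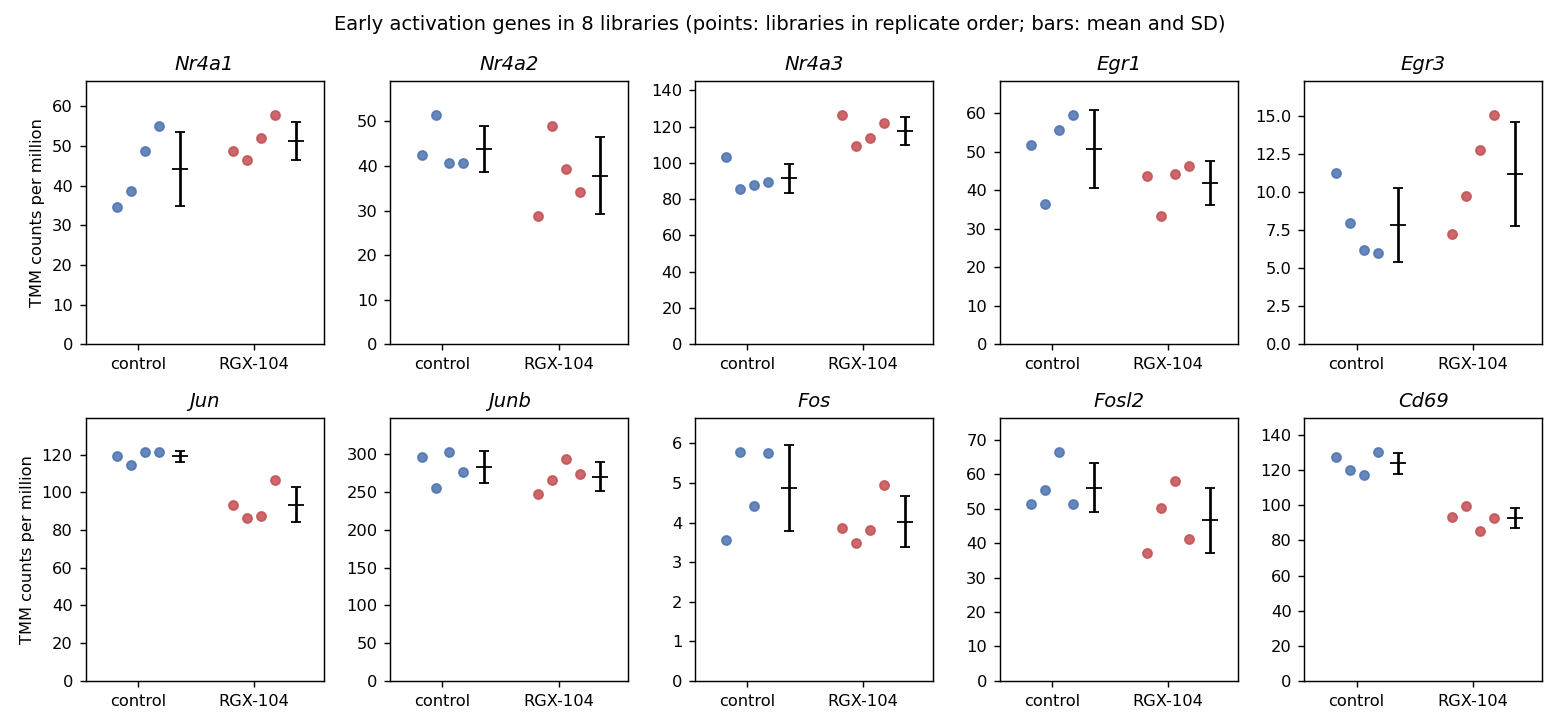
TMM-scaled CPM of the 10 early activation genes (vertical axes from 0) in control (blue) and RGX-104 (red) libraries, with points in replicate order and bars for mean and SD of 4 libraries. The groups separate for Nr4a3, Jun and Cd69, and overlap for the other 7 genes.

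**Figure D2:**
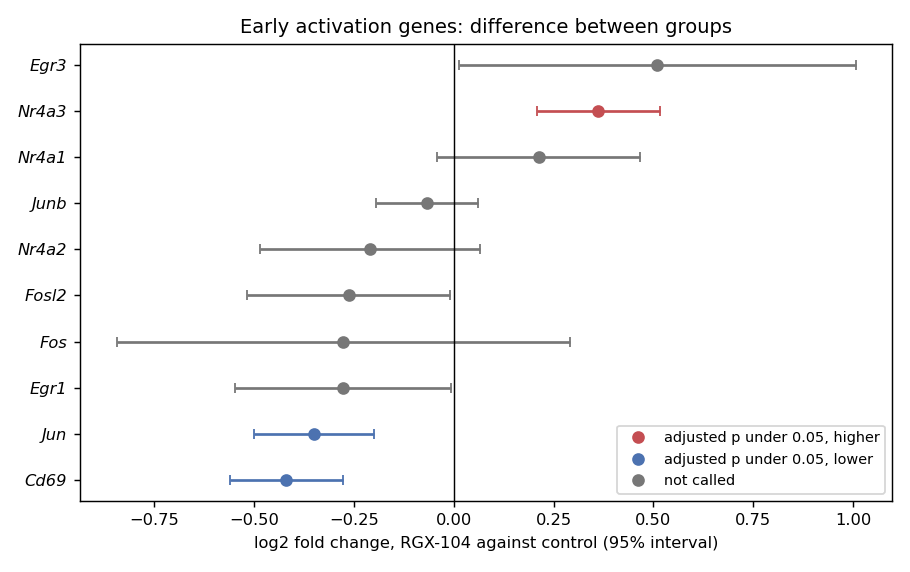
Log2 fold change of each gene, RGX-104 against control, with its 95% interval from the edgeR fit (horizontal axis), colored by the call. The changes run from -0.42 for Cd69 to 0.51 for Egr3, whose interval is wide and which was not called.

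The NR4A receptors are nuclear receptors that act without a known ligand, and their RNA follows the strength of receptor signalling. Nr4a3 (NOR1; chromosome 4, 48045078 to 48086447, GRCm38.p6, plus strand) was at 103, 85.8, 87.6 and 89.6 CPM in control replicates 1 to 4 and at 126, 109, 114 and 122 CPM in RGX-104 replicates 5 to 8. Every RGX-104 library lay above every control library, and control replicate 1 stood closest to the treated group. Nr4a3 rose from 91.6 ± 8.05 to 118 ± 7.83 CPM (mean ± SD, n = 4 per group), a log2 change of 0.36 ± 0.07 (± SE; edgeR adjusted p = 0.00658, higher in 4 of 4 libraries).

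Nr4a1 (NUR77; chromosome 15, 101253902 to 101274795, plus strand) is widely used as a reporter of receptor signalling. It was at 34.6, 38.5, 48.7 and 55.0 CPM in control and at 48.8, 46.4, 52.1 and 57.7 CPM in RGX-104. Control replicates 1 and 2 lay below all treated libraries, while control replicates 3 and 4 lay within their range. The log2 fold change was 0.21 (95% interval -0.04 to 0.47, edgeR adjusted p = 0.467).

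Nr4a2 (NURR1; chromosome 2, 57106830 to 57124003, minus strand) was at 42.4, 51.3, 40.6 and 40.7 CPM in control and at 28.8, 49.0, 39.4 and 34.1 CPM in RGX-104. RGX-104 replicate 6 was inside the control range and the other 3 treated libraries were below it. Its log2 fold change was -0.21 (95% interval -0.49 to 0.07, edgeR adjusted p = 0.516), opposite in sign to those of its relatives. The within-library log2 ratio of Nr4a3 to Nr4a1 counts was 1.07 ± 0.39 in control and 1.20 ± 0.13 in RGX-104 (two-sided exact permutation test, p = 0.571, 4 against 4 libraries; adjusted p = 0.714 over 5 ratios). This ratio therefore did not show that the 2 genes changed by different amounts.

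The promoters of Nr4a3, which was called, and Nr4a1, which was not, are shown as examples. Both fold changes were positive and their ratio showed no unequal change, so the sequences are not read as a contrast. RefSeq promoter windows of GRCm38.p6 were found for 7 of the 10 genes: the NR4A genes, Jun, Junb, Fos and Fosl2. The 250 bases before the annotated start were searched on both strands for TGACGT (the core of the cAMP response element), its variant TGCGTCA, TGACATCA, the AP-1 site TGACTCA, the EGR site GCGTGGGCG, the NR4A site AAAGGTCA, the CArG box of serum response factor, and DR4, the spaced repeat that LXR binds. The motifs were chosen after the sequences had been seen. AAAGGTCA shares its end with the DR4 repeat, and no matches overlapped in the 7 windows. Of the 7, Nr4a3 and Fos held TGACGT, which 6.47% of 32851 promoter windows held, Nr4a1 held TGCGTCA (1.75%), and Jun held TGACATCA (2.93%). The other motifs were in none of the 7 windows. They were found in 4.46% (TGACTCA), 0.536% (GCGTGGGCG), 1.34% (AAAGGTCA), 1.47% (CArG box) and 0.0152% (DR4) of all windows. Nr4a3 had 3 TGACGT matches, which begin 231, 205 and 147 bases before the start. Nr4a1 had 4 TGCGTCA matches, which begin 235, 215, 71 and 42 bases before it. For both genes the start used lies within the span given above, and all windows shown reach into that span. The last Nr4a3 window also overlaps the first exon of a longer Nr4a3 transcript in GENCODE M21. Capitals mark the matches, and both genes read along the plus strand.
Nr4a3, chr4:48045062-48045091: ggaggaggagggTGACGTagcgtcccatgt
Nr4a3, chr4:48045088-48045117: atgtcgtcacatTGACGTctcgcattccag
Nr4a3, chr4:48045146-48045175: ctgtggcataaaTGACGTgccgagagagcg
Nr4a1, chr15:101266596-101266845: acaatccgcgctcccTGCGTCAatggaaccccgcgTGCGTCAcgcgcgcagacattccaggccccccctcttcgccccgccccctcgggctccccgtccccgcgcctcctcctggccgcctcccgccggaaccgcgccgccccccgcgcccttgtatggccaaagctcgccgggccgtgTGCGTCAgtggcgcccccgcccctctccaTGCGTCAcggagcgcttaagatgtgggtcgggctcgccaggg
A match describes letters in a window and was not measured as a bound site.

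EGR1 and EGR3 are zinc finger factors downstream of ERK and NFAT, and EGR3 with its relative EGR2 restrains T cell activation. Egr1 (chromosome 18, 34861207 to 34864956, plus strand) was at 51.7, 36.4, 55.6 and 59.4 CPM in control and at 43.7, 33.4, 44.2 and 46.2 CPM in RGX-104. Of the controls, 3 exceeded every treated library, and control replicate 2 was lower than all but RGX-104 replicate 6. The log2 fold change was -0.28 (95% interval -0.55 to -0.01). Its unadjusted p was 0.0446 and its edgeR adjusted p = 0.346, so it was not called.

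Egr3 (chromosome 14, 70077317 to 70082613, plus strand) was at 11.2, 7.93, 6.18 and 6.01 CPM in control and at 7.23, 9.73, 12.7 and 15.0 CPM in RGX-104. The groups overlapped, with control replicate 1 above RGX-104 replicates 5 and 6. At 0.51 on the log2 scale (95% interval 0.01 to 1.01, edgeR adjusted p = 0.348) its fold change rested on a mean of 139 counts per library. It was 0.34 without RGX-104 replicate 8 and 0.74 without control replicate 1. The within-library log2 ratio of Egr3 to Egr1 counts was -2.71 ± 0.60 in control and -1.94 ± 0.44 in RGX-104 (two-sided exact permutation test, p = 0.0857, 4 against 4 libraries; adjusted p = 0.143). Egr2 was listed at 0 in all libraries, but its symbol stands in the table again with a number appended, so that 0 is not read as absence. The corepressors Nab1 and Nab2, which bind EGR proteins, were not called by DESeq2, limma-voom or edgeR, and of the pair Nab2 had an unadjusted p under 0.05. Nab1 was at 105 ± 10.3 and 96.6 ± 6.88 CPM and Nab2 at 23.7 ± 2.73 and 29.8 ± 4.54 CPM in control and in RGX-104.

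AP-1 is a dimer of a JUN protein with a FOS, ATF or BATF protein. Jun (chromosome 4, 95049036 to 95052222, minus strand) encodes the founding subunit. It was at 119, 115, 121 and 121 CPM in control and at 93.2, 86.5, 87.7 and 107 CPM in RGX-104. All treated libraries were below all controls, and RGX-104 replicate 8 was nearest to them. Jun fell from 119 ± 3.12 to 93.5 ± 9.28 CPM, a log2 change of -0.35 ± 0.07 (edgeR adjusted p = 0.00713, lower in 4 of 4 libraries). Its exon overlaps the antisense gene Junos over 232 bp on the opposite strand in GENCODE M21. Junos was at 1.16 ± 0.762 CPM in control and 0.751 ± 0.426 CPM in RGX-104.

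The Jun promoter window is shown because Jun was the AP-1 gene of the 10 that was called. Its TGACATCA match begins 45 bases before the start. Capitals mark it, and the sequence reads along the gene's minus strand.
Jun, chr4:95052223-95052472: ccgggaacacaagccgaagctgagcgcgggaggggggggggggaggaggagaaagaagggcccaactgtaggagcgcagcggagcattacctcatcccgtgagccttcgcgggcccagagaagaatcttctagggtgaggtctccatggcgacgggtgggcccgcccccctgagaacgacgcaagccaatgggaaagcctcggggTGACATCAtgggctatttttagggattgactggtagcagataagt
The other 3 AP-1 genes of the 10 with a promoter window held no TGACATCA in it. Only 2.93% of 32851 windows held it, and the motif was chosen after the sequences had been seen. Its absence from these 3 therefore does not set Jun apart.

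Junb (chromosome 8, 84976909 to 84978748, minus strand), a JUN relative that can oppose Jun, was at 297, 256, 303 and 276 CPM in control and at 247, 266, 294 and 274 CPM in RGX-104. The groups overlapped widely. Its log2 fold change was -0.07 (95% interval -0.20 to 0.06, edgeR adjusted p = 0.698), the narrowest interval of the 10. Exons of Junb and of the peroxidase gene Prdx2 on the opposite strand overlap over 173 bp, and Prdx2 was at 84.0 ± 7.60 and 94.7 ± 8.25 CPM in control and in RGX-104. The within-library log2 ratio of Jun to Junb counts was -1.25 ± 0.09 in control and -1.53 ± 0.18 in RGX-104. It was lower in 4 of 4 treated libraries, with the smallest p that 4 against 4 libraries allow (two-sided exact permutation test, p = 0.0286). Adjusted over the 5 ratios it did not pass the threshold (adjusted p = 0.0714).

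Fos and Fosl2 encode partners of JUN proteins. Fos (chromosome 12, 85473890 to 85477274, plus strand) was low, with a mean of 65.6 counts per library. It was at 3.55, 5.78, 4.42 and 5.75 CPM in control and at 3.86, 3.48, 3.82 and 4.95 CPM in RGX-104. The ranges overlapped. The log2 fold change was -0.28, and its 95% interval of -0.84 to 0.29 holds both 0 and the value of Jun (edgeR adjusted p = 0.723).

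Fosl2 (FRA2; chromosome 5, 32136472 to 32157840, plus strand) was at 51.3, 55.4, 66.5 and 51.3 CPM in control and at 37.0, 50.3, 58.2 and 41.4 CPM in RGX-104. RGX-104 replicates 5, 6 and 8 lay below all controls, while replicate 7 lay above 3 of them. The log2 fold change was -0.26 (95% interval -0.52 to -0.01; unadjusted p = 0.0425, edgeR adjusted p = 0.340). The within-library log2 ratio of Fosl2 to Fos was 3.54 ± 0.39 in control and 3.52 ± 0.43 in RGX-104 (two-sided exact permutation test, p = 0.886, 4 against 4 libraries; adjusted p = 0.886).

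Cd69 (chromosome 6, 129267324 to 129275375, minus strand), the surface marker of the set, was at 127, 120.0, 117 and 130.3 CPM in control and at 93.4, 99.3, 85.1 and 92.7 CPM in RGX-104. The lowest control was above the highest treated library. Cd69 fell from 124 ± 6.06 to 92.6 ± 5.82 CPM, a log2 change of -0.42 ± 0.07 (edgeR adjusted p = 0.000649, lower in 4 of 4 libraries). Cd44, an adhesion receptor that stays high on activated and memory T cells, was at 278, 285, 283 and 303 CPM in control and at 366, 374, 345 and 354 CPM in RGX-104. Cd44 rose by 0.33 ± 0.05 on the log2 scale (edgeR adjusted p = 0.000378). The within-library log2 ratio of Cd69 to Cd44 went from -1.21 ± 0.06 to -1.96 ± 0.05, a difference of -0.75, with no overlap. Since the groups separated in opposite directions for both genes, their ratio had to separate as well. Its exact permutation p (two-sided, p = 0.0286, adjusted p = 0.0714) therefore adds nothing to those calls.

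**Figure D3:**
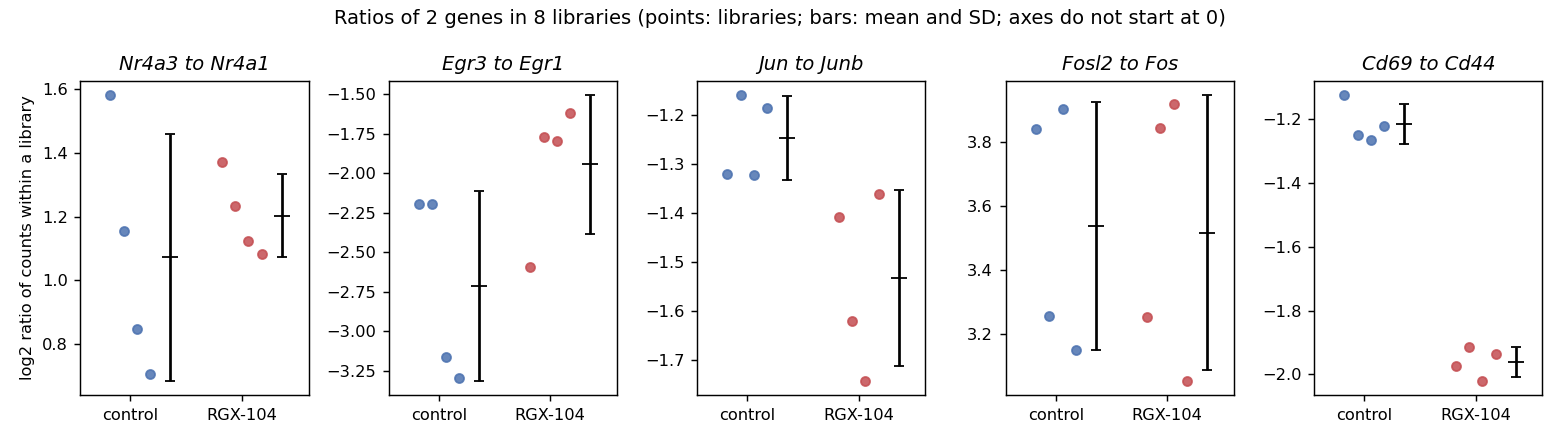
Log2 ratio of the counts of 2 genes within each library (vertical axes, which do not start at 0), with points in replicate order and bars for mean and SD of 4 libraries. The groups separate for Jun to Junb and for Cd69 to Cd44 and overlap for the other 3 ratios.

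The 10 genes differed in how closely the libraries of a group agreed. Jun was tightest in control, with a coefficient of variation of 2.62%, close to the 2.52% expected from counting alone, and had 9.92% in RGX-104. Cd69 (4.89 and 6.29% in control and RGX-104), Nr4a3 (8.79 and 6.64%) and Junb (7.55 and 7.09%) were also steady. Egr3 varied most, with 30.9 and 30.5% against 8.49% from counting. Fos had 22.3 and 15.9% in control and in RGX-104, against 12.3% from counting. Nr4a1 (21.1%) and Egr1 (19.9%) were more spread in control than in RGX-104, and Nr4a2 (22.8%) and Fosl2 (20.2%) more in RGX-104 than in control, and counting would give 3.62 to 4.07% for these 4 genes. The 3 called genes were thus among the 4 with the smallest dispersion in the fit (biological coefficient of variation 6.46 to 7.27%, against 11.8 to 24.5% for the other 6). The libraries did not share one order. RGX-104 replicate 8 was the highest of its group for 5 genes (Nr4a1, Egr1, Egr3, Jun and Fos) and the lowest for none. RGX-104 replicate 6 was the lowest for 5 (Nr4a1, Nr4a3, Egr1, Jun and Fos) and the highest for Nr4a2 and Cd69.

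**Figure D4:**
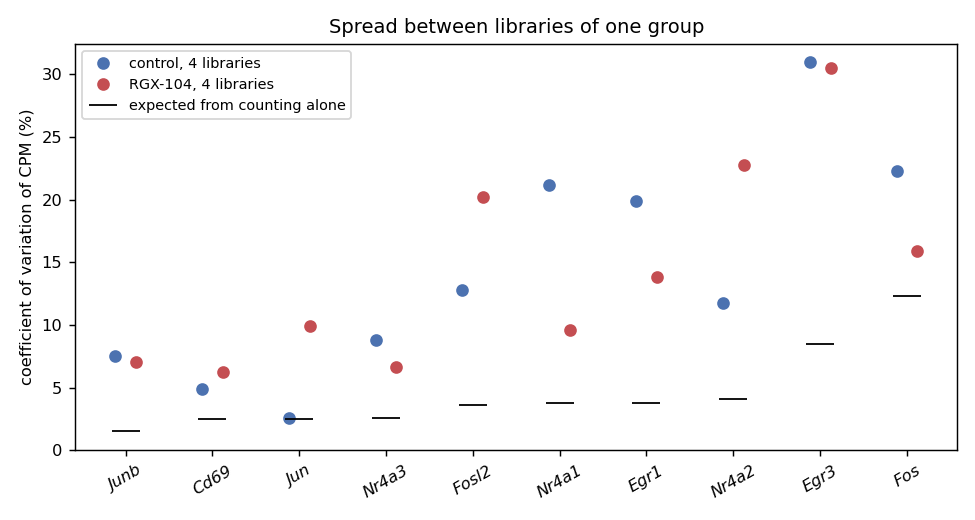
Coefficient of variation of CPM (vertical axis, %) over the 4 control (blue) and 4 RGX-104 (red) libraries for each gene, with the value expected from counting alone as a black bar. Jun in control lies at the counting level, and Egr3 lies near 30.9 and 30.5% against 8.49%.

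Short length and AU-rich messengers were not part of the rule that chose the genes. The genes were chosen as a class with short-lived messengers, so AU-rich messengers are no independent result. Of the 10 genes, 5 (Egr1, Egr3, Jun, Junb and Fos) span less than 6000 bp in RefSeq, against 19.5% of 12153 tested genes with a RefSeq symbol, and Jun is a single exon. The median span, which does not depend on the 6000 bp limit, was 6674 bp for the 10 against 20386 bp. The pentamer ATTTA, the core of the AU-rich elements that mark messengers for decay, was present in the 3′ UTR of all 10 in GENCODE M21. The share of all tested genes that hold it was not counted, so its presence alone does not set the 10 apart. It stood at 1.62 (Nr4a3) to 5.52 (Nr4a1) copies per kilobase, with a median of 2.45, against a median of 1.27 over 10607 tested genes. The longer element TTATTTATT was found in Fos and Fosl2, and in 7.30% of those tested genes. This share takes no account of length: the 3′ UTR has 815 bases in Fos and 4653 in Fosl2, against a median of 985 over those tested genes. The called genes Nr4a3, Jun and Cd69 had 1.62, 3.24 and 2.14 ATTTA copies per kilobase and lay within the range of the others apart from Nr4a3, which had the fewest.

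Another 10 lists of related genes gave 116 genes, of which 114 were in the table and 103 were tested. Of these, 5 rose and 3 fell, 7.77% in all against 2.66% of all genes tested, and the median log2 fold change was 0.03. The lists were also chosen with earlier results of these data known, so that share is no test of them. Among 12 tested AP-1 and bZIP partners, 1 fell and none rose (median log2 fold change -0.02). It was Atf3, a stress-induced partner of JUN proteins, at 32.0, 42.5, 36.3 and 36.1 CPM in control and 23.4, 20.2, 22.9 and 17.5 CPM in RGX-104. Atf3 fell by 0.81 ± 0.13 on the log2 scale (edgeR adjusted p = 0.000448). Batf3 was at 66.7 to 77.1 CPM in control and 52.8 to 62.4 CPM in RGX-104, without overlap, and missed the threshold (log2 fold change -0.30, edgeR adjusted p = 0.0612), though DESeq2 called it lower. It also stands among the dendritic cell markers. Batf, the AP-1 partner of IRF4 in effector T cells, was at 63.1 ± 5.12 and 65.9 ± 5.80 CPM (log2 fold change 0.06, 95% interval -0.12 to 0.24). The JUN family gene Jund, also on the list, had a mean of 0.125 counts per library and was not tested. Its symbol stands in the table again with a number appended, so this level is not read as absence.

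Of 24 tested other immediate early and mRNA decay genes, 2 fell and none rose (median log2 fold change -0.07, 14 negative and 10 positive). An unadjusted p under 0.05 was found for 9 of the 24, against 13.8% of all genes tested. The groups did not overlap for 6, against 8.20% of all genes tested. Among these 6, Klf10 was higher in RGX-104 (log2 fold change 0.39, edgeR adjusted p = 0.237, not called) and the others were lower. Klf6, a zinc finger factor of the immediate early type, was at 409 to 433 CPM in control and 287 to 316 in RGX-104, and fell by 0.48 ± 0.05 on the log2 scale (edgeR adjusted p = 1.82e-06). Rgs2, a regulator of G protein signalling, was at 115 to 121 CPM in control and at 77.4, 75.7, 83.0 and 101 CPM in RGX-104. It fell by 0.49 ± 0.08 (edgeR adjusted p = 0.000630), and as with Jun, RGX-104 replicate 8 was closest to control. Ier2, another immediate early gene, was at 48.8 to 57.8 CPM in control and 36.1 to 46.3 in RGX-104 (log2 fold change -0.36, edgeR adjusted p = 0.0582), and DESeq2 called it lower.

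Calls were few among the signalling genes around the set, as they were among all genes tested (2.66%). Of 11 tested genes for factors upstream of immediate early genes none was called by edgeR, and 1 had an unadjusted p under 0.05. That was Srf, the serum response factor that drives FOS and EGR genes, at 51.4 ± 2.71 and 62.7 ± 4.83 CPM in control and in RGX-104 (log2 fold change 0.29, edgeR adjusted p = 0.0898). Its groups did not overlap, and DESeq2 called it higher while limma-voom did not. Mef2a was at 70.6 ± 9.40 and 60.8 ± 8.67 CPM. Of 11 tested ERK feedback genes none was called by DESeq2, limma-voom or edgeR, with 9 of 11 below 0 and a median of -0.17. The phosphatase gene Dusp6, a common readout of ERK activity, was at 12.9 to 20.3 CPM in control and 11 to 14.3 CPM in RGX-104 (log2 fold change -0.49, edgeR adjusted p = 0.164) and alone had an unadjusted p under 0.05. Dusp1 was at 6.77 ± 1.61 and 5.38 ± 1.98 CPM.

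Of 14 tested calcium and NFAT genes, 1 rose and none fell, with 12 of 14 above 0 and a median of 0.06. Nfatc2, which encodes the NFAT1 factor, was at 9.34 to 15.4 CPM in control and 16.2 to 20.4 CPM in RGX-104, a log2 change of 0.63 ± 0.17 (edgeR adjusted p = 0.0447), but its call held in only 5 of 13 alternative settings, with adjusted p up to 0.162. Ppp3r1, the regulatory subunit of calcineurin, was at 128 ± 7.43 and 153 ± 14.8 CPM (edgeR adjusted p = 0.0516) and was called higher by DESeq2. None of the 5 tested NR4A partners and exhaustion factors was called by DESeq2, limma-voom or edgeR, and none had an unadjusted p under 0.05. Rxra, a retinoid X receptor that pairs with LXR and with NR4A1 and NR4A2, was at 6.71 ± 2.21 and 9.74 ± 3.67 CPM, and Lag3 at 3.41 ± 0.817 and 4.70 ± 0.734 CPM.

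No other activation receptor of the list was called lower, as Cd69 was. The median log2 fold change of the 12 tested was 0.14, with 11 of 12 above 0. Of the 12, 4 rose and none fell, against 0.888% higher and 1.78% lower over all genes tested. Beside Cd44 these were Tnfrsf18 (GITR; log2 fold change 0.34 ± 0.08, edgeR adjusted p = 0.0158), Crtam (0.30 ± 0.07, edgeR adjusted p = 0.0158) and Icos (1.06 ± 0.28, edgeR adjusted p = 0.0432). Of the 13 alternatives, the call held in 13 for Cd44, 10 for Crtam, 9 for Tnfrsf18 and 5 for Icos. Not called were Il2ra, Tnfrsf4, Tnfrsf9, Tfrc and Cd5 (log2 fold change 0.01 to 0.03), Slamf1 (0.24), Cd28 (0.85) and Cd200 (-0.15). Icos is low (2.84 ± 0.857 CPM in control) and uncertain, since its symbol is repeated in the table, and exons of Tnfrsf18 overlap the antisense gene Gm16008 over 414 bp. Among 7 tested genes of the S1P receptor and homing list none was called by edgeR, and 1 had an unadjusted p under 0.05. S1pr1, the partner that CD69 pulls from the surface, was at 12.3 ± 1.69 and 11.0 ± 0.214 CPM (log2 fold change -0.16, 95% interval -0.50 to 0.19). Klf3 was at 55.3 ± 4.77 and 43.2 ± 4.50 CPM (edgeR adjusted p = 0.0576) and was called lower by DESeq2, and Ccr7 at 465 ± 24.7 and 493 ± 46.9 CPM.

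Heat shock genes, which can rise with handling stress, gave no edgeR call among 5 tested. Of the 5, 2 had an unadjusted p under 0.05, against 13.8% of all genes tested. Hspa8 was at 958 ± 33.9 and 1055 ± 19.3 CPM (log2 fold change 0.14, edgeR adjusted p = 0.0891) and was called higher by DESeq2 and limma-voom. Dnajb1 was at 91.1 ± 5.92 and 101 ± 4.98 CPM. Hspa1a and Hspa1b were listed at 0, and their symbols are repeated, so that 0 is not read as absence. Handling stress was not tested.

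**Figure D5:**
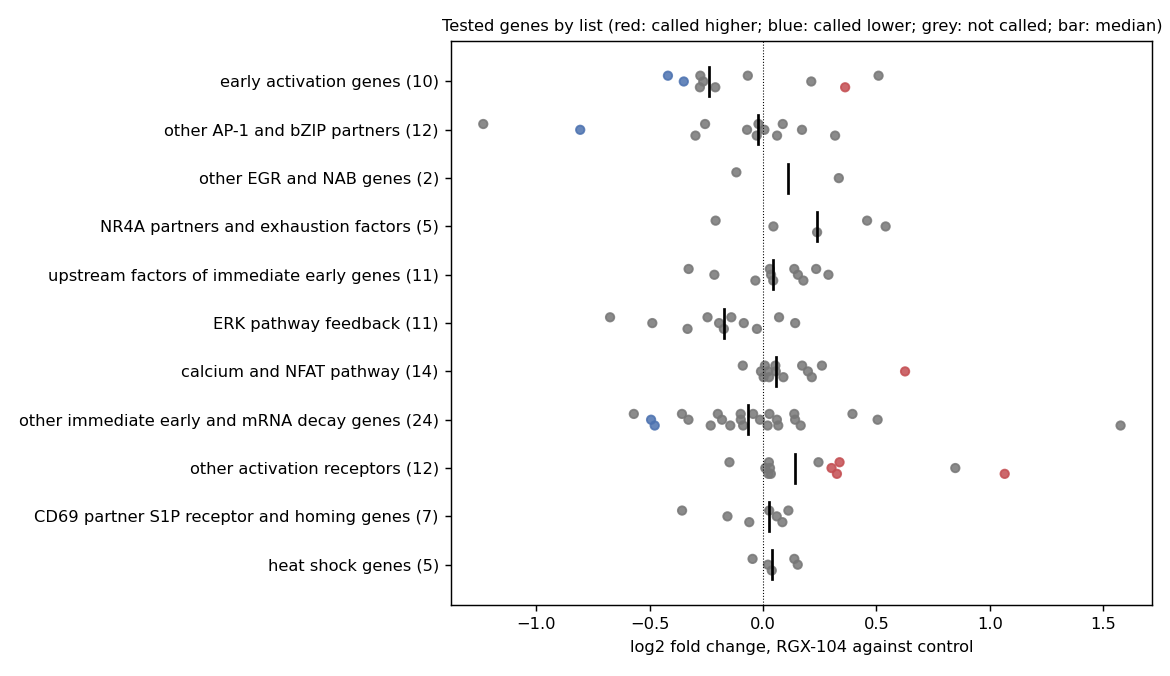
Log2 fold change, RGX-104 against control (horizontal axis), of each tested gene of the early activation set and of 10 related lists, with the number tested in brackets and the median as a black bar. Of the 103 tested related genes 7.77% were called, against 2.66% of all genes tested. Lower were 1 of 12 bZIP partners and 2 of 24 immediate early and decay genes. Higher were 4 of 12 activation receptors and 1 of 14 calcium and NFAT genes.

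For the 3 called genes the closest profiles over the 8 libraries were sought among 10974 other tested genes averaging 20 counts or more, by the root mean square difference of log2 CPM values centred on the control mean. For Nr4a3 these were Galnt10 (0.067), Crtam (0.068) and Gprin3 (0.074). Crtam and Gprin3 rose (log2 fold change 0.30 and 0.32), and Galnt10 was at 15.2 ± 1.59 and 19.8 ± 2.17 CPM without a call. For Jun they included Gm36449 (0.083) and the autophagy receptor gene Sqstm1 (0.084), which fell by 0.39 and 0.28 on the log2 scale. For Cd69 they were LOC115490270 (0.062), Snord13 (0.079) and the seryl-tRNA synthetase gene Sars (0.085), which fell by 0.43, 0.36 and 0.47. The measure picks genes with a change of like direction and size, so a shared direction was fixed by the choice and is no separate result.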

How the data were processed

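RNA of 8 libraries was read with a Lexogen 3′ FWD kit from total RNA, per the labels' protocols, so a count reflects reads near a transcript's 3′ end. The authors deposited raw whole-number counts for each gene. The submitters' processing notes list STAR 2.7.8a, R 4.1.0, DESeq2 1.4 and GRCm38, without their roles. How reads were counted (tool, strand, reads with several matches, molecular identifiers) is not given in the sources used here, so intervals cover counting error only where reads are independent.

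Columns were matched to samples by number and group word in the titles (0 columns belonged to another series). Counts were fitted with edgeR 4.0.16 in R 4.3.3 (filterByExpr, TMM, glmQLFit, glmQLFTest, group as the only term, all 8 libraries). The common biological coefficient of variation was 14.5%. An SE is the size of the log2 fold change over the square root of F. Ratios used counts plus 0.5 and an exact permutation test over 70 assignments, adjusted over 5 ratios. Alternatives were DESeq2 1.42.0, limma-voom (limma 3.58.1), RLE factors, 2 other filters, a pseudocount of 2 and leaving out each library.

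The members and lists were chosen with earlier results of these data known. Named genes were all members, every called gene of a list and its 2 genes with the smallest p, and the 3 closest profiles of each called member, of which 1 is not reported here. Batf, Jund, S1pr1, Mki67, Junos, Prdx2 and the uncalled activation receptors fall outside this rule and were chosen after their values were seen. None of the 10 members has a repeated symbol. The neutrophil, B cell and erythroid marker lists summed to at most 9.14, 2.42 and 122 CPM, with none of their genes called.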

Additional observations from a re-analysis of the deposited data

Results flagged for a closer look

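In 90 groups of 4 libraries 3 values were flagged because their gap from the other libraries was large relative to the range of the group. That is not above the rate of about 1 in 20 that chance gives. None of them was a value of the 10 early activation genes or of a ratio. Mef2a, a factor upstream of immediate early genes, was at 84.6 CPM in control replicate 2, against 64.9 to 67.9 in the other controls. The summed CD8 T cell markers were at 1665 CPM in control replicate 4, against 1636 to 1639. The summed erythroid and platelet markers were at 110.6 CPM in control replicate 3, against 113.9 to 114.6.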

How the results depend on the processing

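Under all 13 alternatives the same 3 of the 10 early activation genes were called, Nr4a3 higher and Jun and Cd69 lower, and none of 130 fold changes changed sign or side of the threshold. The adjusted p ran from 0.000392 to 0.0379 for Nr4a3, from 0.000380 to 0.0431 for Jun and from 7.22e-07 to 0.00466 for Cd69, with log2 fold changes of 0.33 to 0.43, -0.42 to -0.31 and -0.45 to -0.38. Of the uncalled genes, Egr1 came closest (adjusted p = 0.0792 at its lowest). Egr3 ran from 0.34 to 0.74, Nr4a1 from 0.11 to 0.34, Nr4a2 from -0.36 to -0.10, Egr1 from -0.41 to -0.18, Fos from -0.40 to -0.18, Fosl2 from -0.39 to -0.17 and Junb from -0.11 to -0.03. With 5 ratios and a smallest p of 0.0286, at least 3 would have to separate fully for any to pass, so their adjusted p says nothing about stability. Leaving out 1 library gave differences of 0.0088 to 0.30 for Nr4a3 to Nr4a1, 0.57 to 0.98 for Egr3 to Egr1, -0.34 to -0.22 for Jun to Junb, -0.15 to 0.13 for Fosl2 to Fos and -0.76 to -0.72 for Cd69 to Cd44. That design of 3 against 4 libraries was not tested.

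Counts over more genes moved further. DESeq2 called 167 genes higher, against 108, and 8 higher and 6 lower of the related genes, against 5 and 3. Without the filter on low counts 3 related genes were higher, and with a mean of at least 20 counts 6 were lower. Leaving out 1 library gave 57 to 93 genes higher and 1 to 6 related genes higher. The count over all genes was lowest without control replicate 1, 2 or 3 (66, 57 and 58) or RGX-104 replicate 6, 7 or 8 (65, 61 and 60). Related genes higher numbered 2, 1 and 2 without control replicates 2, 3 and 4, and 3, 2 and 1 without RGX-104 replicates 6, 7 and 8. The cause was not tested. No paired analysis was possible because the groups share no replicate number. Counting limits Fos and Egr3 most, at 12.3 and 8.49% per library.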
